A study of Mus musculus with 2 samples.

Results

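The 10 genes described here encode proteins that neutrophils store in granules, carry in the cytosol or display on the surface: Camp, Ngp, Ltf, Retnlg, S100a8, S100a9, Ly6g, Elane, Mpo and Lcn2. They were chosen by symbol, as rows of the deposited value table that the platform annotation gives exactly 1 gene symbol, and each of the 10 has 1 row out of 41345 (10 of 22180 genes named in this way). The samples were alveolar macrophages from lungs of adult C57BL6 littermates, digested with collagenase and sorted as living (DAPI-), Siglec-F+ and CD11c+ cells. One array was labelled PIKfyve KO, from mice with floxed Pikfyve alleles and LysM-Cre (f_f_lysm_cre), and the other was labelled wild type, from mice with the same floxed alleles and no Cre given in the label (f_f). LysM-Cre is a recombinase expressed from the lysozyme 2 locus, which is active in macrophages, monocytes and neutrophils alike. With 1 array for each label, and no statement of how many mice gave its RNA, there is no replicate error and no test of a difference.

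PIKfyve is a lipid kinase of endosomes and lysosomes, which phosphorylates phosphatidylinositol 3-phosphate. Neutrophils make their granules in sequence while they mature in the bone marrow. Azurophil granules come first and hold myeloperoxidase and serine proteases, specific granules follow with lactoferrin, lipocalin 2 and the cathelicidin, and the calcium-binding S100A8 and S100A9 proteins fill the cytosol. The transcripts of azurophil proteins decline earlier than those of specific granule proteins. Several of these genes are also expressed outside neutrophils, S100a8 and S100a9 in monocytes and Lcn2, Ltf and Camp in epithelia, and Lcn2 and Camp in stimulated macrophages.

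Values are log2 RMA values, an array signal after background correction and normalisation between arrays, and differences are KO minus wild type. Pikfyve itself read 5.95 in the array labelled KO and 5.68 in the array labelled wild type. The position of its probes against the deleted exons is not known here, so the row cannot check the labels, and the arrays are called by their labels throughout. Of the genes of the sort, Siglecf read 8.54 and Itgax, which encodes CD11c, 10.39 in the array labelled KO, against 9.27 and 10.03 in the array labelled wild type. All 16 measured markers of alveolar macrophages lay above background on both arrays. Background was taken as the 95th percentile of 1428 olfactory, vomeronasal and taste receptor genes, 5.31 in the array labelled KO and 5.37 in the array labelled wild type. The 12516 genes with a mean level of at least 5.13, the median over the table's rows, were analysed, and all 10 neutrophil genes were among them. The median difference of the 12516 analysed genes was 0.00. As a measure of scatter, the median absolute deviation of the differences was taken within 20 bins of mean level and scaled to match an SD. This local spread ran from 0.20 to 0.33, and noise and real differences both enter it.

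C/EBP factors and PU.1 drive granule genes during neutrophil maturation, and 4 promoters are printed because their genes stand for different ends of the result: Camp had the largest difference of the 10, Ngp and S100a8 were also higher in the array labelled KO, and Elane, of the earlier azurophil granules, was not. Each is the 250 bases before the annotated start in RefSeq (GRCm38.p6), 5′ to 3′ on the gene's strand. Matches to the C/EBP motif TTNCNNAA on either strand are in capitals.
Camp (chr9:109849457-109849706, minus strand): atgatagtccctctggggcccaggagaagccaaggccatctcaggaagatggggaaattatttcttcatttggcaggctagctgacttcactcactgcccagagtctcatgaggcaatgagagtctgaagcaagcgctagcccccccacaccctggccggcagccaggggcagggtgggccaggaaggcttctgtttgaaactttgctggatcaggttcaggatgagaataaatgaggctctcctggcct
Ngp (chr9:110419558-110419807, plus strand): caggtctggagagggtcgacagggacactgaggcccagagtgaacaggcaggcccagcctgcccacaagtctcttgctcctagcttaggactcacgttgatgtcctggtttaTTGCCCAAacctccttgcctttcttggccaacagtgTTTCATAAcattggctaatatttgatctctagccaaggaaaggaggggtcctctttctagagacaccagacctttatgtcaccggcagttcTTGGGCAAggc
S100a8 (chr3:90668821-90669070, plus strand): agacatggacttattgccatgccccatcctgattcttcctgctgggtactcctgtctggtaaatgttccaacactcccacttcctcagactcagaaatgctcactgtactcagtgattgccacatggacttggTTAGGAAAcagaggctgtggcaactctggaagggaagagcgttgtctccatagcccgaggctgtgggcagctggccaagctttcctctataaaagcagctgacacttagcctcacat
Elane (chr10:79886062-79886311, plus strand): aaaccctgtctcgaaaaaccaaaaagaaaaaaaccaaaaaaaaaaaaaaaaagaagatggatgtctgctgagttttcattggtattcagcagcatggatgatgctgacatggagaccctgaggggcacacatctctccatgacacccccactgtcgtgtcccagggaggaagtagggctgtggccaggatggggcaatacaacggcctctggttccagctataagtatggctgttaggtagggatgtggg
All 10 genes had a promoter in the RefSeq table, Ly6g with 2. A match to TTNCNNAA stood in at least 1 promoter of 7 of the 10 genes, and in 36.8% of the 32851 promoters of the table. Ngp held 3 matches, Ltf and S100a9 2 each, and Retnlg, S100a8 and Lcn2 1 each, while Ly6g held 2 in one promoter and 1 in the other. Camp, Elane and Mpo held none of these letters. The PU.1 core GAGGAA, searched on both strands, stood in promoters of 6 genes, Ltf, S100a8, Ly6g, Elane, Mpo and Lcn2, and in 23.3% of all promoters. TATAAA, searched on both strands, stood in those of S100a8 and Ly6g, and in 12.4% of all promoters. In S100a8 it began 30 bases before the start. The matches are a description of these windows. No C/EBP match overlapped a PU.1 match in these promoters.

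Among the 10 genes, 8 read higher in the array labelled KO and 2, Elane and Mpo, read lower. Of all 12516 analysed genes, 6117 read higher and 6202 read lower. Camp, Retnlg, Ly6g and S100a8 passed 1.5-fold upward, 4 of 10, where 4.45% of all analysed genes were. None of the 10 was 1.5-fold lower, where 2.66% of all analysed genes were. Camp alone reached 2-fold upward, where 0.927% of all analysed genes did, and none of the 10 reached 2-fold downward, where 0.336% did. The median difference of the 10 genes was 0.48 and their mean 0.45, beside a median of 0.00 over all analysed genes. In bulk RNA of a sorted population, more cells of a type and more RNA per cell cannot be told apart.

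**Figure D1:**
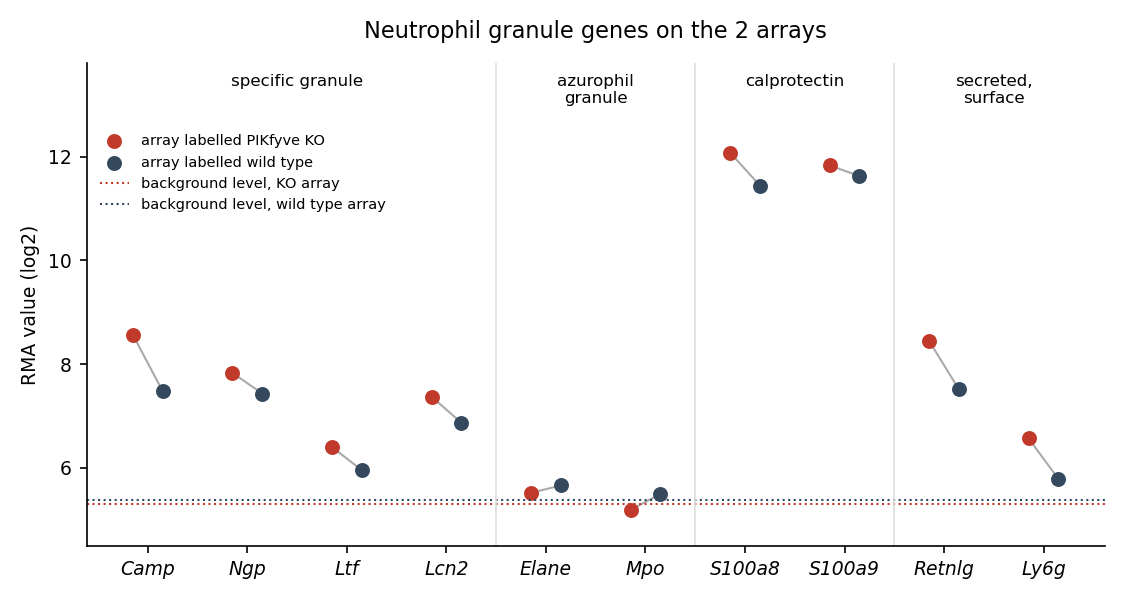
RMA values (log2) of the 10 genes in the array labelled PIKfyve KO (left point of each pair) and the array labelled wild type (right point), grouped by where the protein is stored, with 1 point per array and the background level of each array as a dotted line. The KO point is the higher one in 8 genes, and Elane and Mpo, near the background lines, are the exceptions; heights are not comparable between genes, because probes differ.

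The 4 specific granule genes among the 10 all read higher in the array labelled KO. Camp, which encodes the cathelicidin whose cleaved peptide CRAMP disrupts bacterial membranes, read 8.56 in the array labelled KO and 7.47 in the array labelled wild type. The difference of 1.09 is 2.12-fold, or 3.43 local spreads, and 99.3% of analysed genes had a smaller one. Ngp, the neutrophilic granule protein, which is related in sequence to cathelicidins, read 7.83 in the array labelled KO and 7.43 in the array labelled wild type. Its 1.32-fold difference was 1.28 local spreads. Ltf, which encodes the iron-binding protein lactoferrin, read 6.40 in the array labelled KO and 5.95 in the array labelled wild type, a 1.36-fold difference. Lcn2, which encodes lipocalin 2, a protein that captures bacterial siderophores, read 7.37 in the array labelled KO and 6.87 in the array labelled wild type, a 1.42-fold difference. Ltf and Lcn2 differed by 1.74 and 1.72 local spreads. The 4 differences thus had 1 direction and ran from 0.40 to 1.09. Camp, Ngp and Ltf all lie on chromosome 9, but not side by side.

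The 2 azurophil granule genes among the 10 lay close to background and read lower in the array labelled KO. Elane, which encodes neutrophil elastase, read 5.52 in the array labelled KO and 5.66 in the array labelled wild type, a difference of -0.14. Of the receptor genes, 96.1% read below it in the array labelled KO and 96.2% in the array labelled wild type. Mpo, which encodes myeloperoxidase, the enzyme that makes hypochlorous acid, read 5.19 in the array labelled KO, under the background level, and 5.50 in the array labelled wild type. Measured from that level, the fold to the KO value was at least 1.14, with KO the lower. The difference of Elane was -0.53 local spreads.

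Of the calprotectin pair, S100a8 differed more than S100a9. S100A8 and S100A9 form a heterodimer that binds calcium, zinc and manganese and signals through TLR4 when released. S100a8 read 12.08 in the array labelled KO and 11.44 in the array labelled wild type, a 1.55-fold difference and 3.14 local spreads. S100a9 read 11.83 in the array labelled KO and 11.63 in the array labelled wild type, a 1.15-fold difference and 1.01 local spreads. Every receptor gene read below both genes on both arrays. In the tenth of analysed genes with the highest level, where both lie, the median difference was 0.13, against 0.20 for S100a9 and 0.64 for S100a8. S100a8 was under 1.5-fold with quantile normalisation (0.58) and with loess centring (0.57).

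Retnlg and Ly6g, markers of mature mouse neutrophils, were both higher in the array labelled KO. Retnlg, which encodes a secreted resistin-like protein of neutrophils and bone marrow, read 8.45 in the array labelled KO and 7.51 in the array labelled wild type, a 1.91-fold difference and 2.95 local spreads. Ly6g, the surface protein bound by the neutrophil antibody 1A8, read 6.57 in the array labelled KO and 5.79 in the array labelled wild type. The difference was 1.72-fold and 3.04 local spreads, and with an offset of 32 added to the linear values, which weighs down low signals, it was 0.54 and under 1.5-fold. In the array labelled wild type 96.7% of the receptor genes read below Ly6g, and in the array labelled KO 99.4%.

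**Figure D2:**
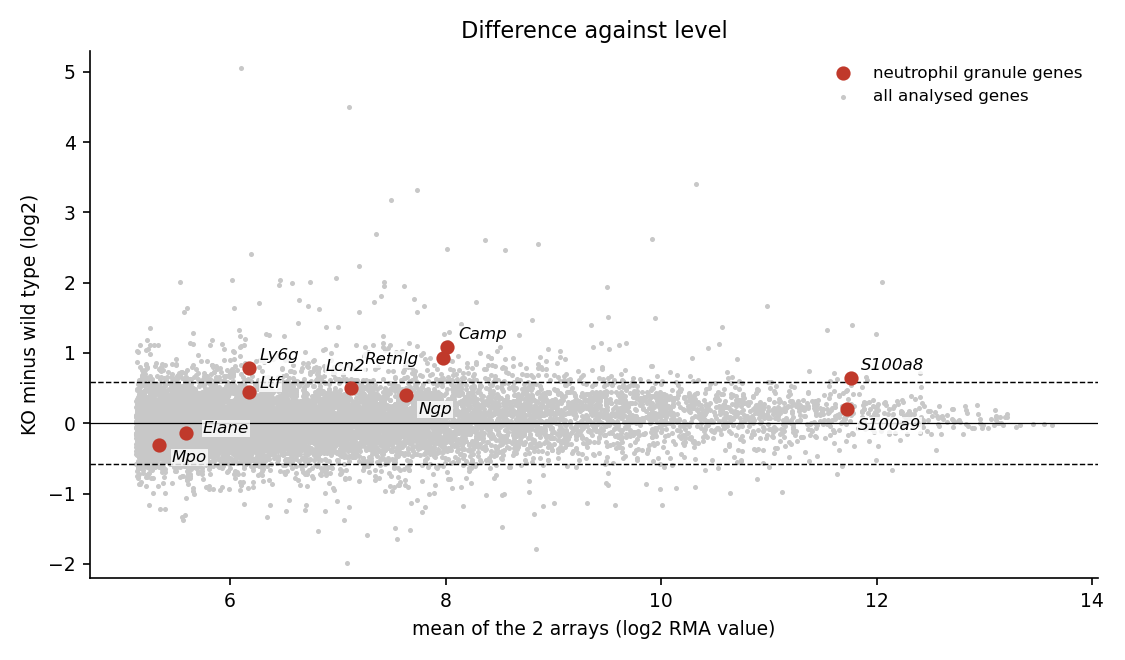
Difference, KO minus wild type (log2), against the mean of both arrays (log2 RMA value) for the 10 genes (red, named) and all 12516 analysed genes (grey); dashed lines mark 1.5-fold. Camp, Retnlg, Ly6g and S100a8 lie above the upper dashed line, and Elane and Mpo lie at the low end of the level axis and below 0.

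The rest of the neutrophil programme did not share one direction. The neutrophil marker list holds 16 genes, 8 of them among the 10 above, and the other 8 had 3 higher, 3 lower and 1 identical among the 7 that were analysed, with a median of 0.00. Mmp8, the collagenase of specific granules, read 8.61 in the array labelled KO and 7.91 in the array labelled wild type, 1.62-fold higher. Csf3r, the receptor of the neutrophil growth factor G-CSF, read 5.68 in the array labelled KO and 6.32 in the array labelled wild type, 1.56-fold lower. Cxcr2, the receptor that draws neutrophils to chemokines, differed by 0.24, Stfa2l1, a stefin, by 0.12, Mmp9, the gelatinase, by -0.10 and Trem1, an activating receptor, by -0.18. Cd177, a surface protein of specific granules, read 5.70 on both arrays. Itgb2l was below background on both. The linear signal summed over the 16 markers was 10624 in the array labelled KO and 7992 in the array labelled wild type. On both arrays most of that sum came from S100a8 and S100a9, which monocytes express as well. Over the 8 markers that are not among the 10 genes the sum was 1358 in the array labelled KO and 1284 in the array labelled wild type.

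Of the 10 listed azurophil granule genes 7 were analysed, with a median of -0.03 and Cd63 as the 1 gene past 1.5-fold. Prtn3, which encodes proteinase 3 and is next to Elane on chromosome 10, differed by -0.03, and Ms4a3, a marker of granulocyte and monocyte progenitors, by 0.09. Ctsg, Prss57 and Bpi were below background on both arrays. Cd63, a tetraspanin of azurophil granules that macrophages carry on lysosomes, was 2.42-fold higher in the array labelled KO. Progenitor markers had 0 of 9 analysed genes at 1.5-fold in either direction.

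Specific granule genes, with 13 of 15 analysed, had a median of 0.16, with Camp and Mmp8 past 1.5-fold upward and no gene past it downward. Of the 13, 9 read higher in the array labelled KO and 3 read lower. The abundant macrophage products on this list were nearly level: Lyz2, lysozyme 2, differed by -0.01 and Chil3, a chitinase-like protein, by 0.13. Of the gelatinase granule list 1 of 7 analysed genes was 1.5-fold apart. It was Vnn3, a vanin family gene, which was below background in the array labelled wild type and at least 2.25-fold higher in the array labelled KO. Cytosolic and small secreted proteins had a median of 0.20, with Retnlg, S100a8 and Wfdc21, a secreted WAP domain protein, 3 of 9, at least 1.5-fold higher. Wfdc21 read 12.47 in the array labelled KO and 11.66 in the array labelled wild type. Surface and trafficking genes had a median of 0.04, with Ceacam1, Ly6g and the lectin gene Clec4d higher and Csf3r lower by 1.5-fold among 14. Ceacam1, an adhesion receptor found on epithelia as well as neutrophils, read 6.97 in the array labelled KO and 5.69 in the array labelled wild type.

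Regulators of granulopoiesis read lower in the array labelled KO in 11 of 12 analysed genes, by small amounts. Of all 12516 analysed genes, 6202 read lower. The median of the 12 regulators was -0.28, with 1 gene, Csf3r, 1.5-fold lower. Runx1 differed by -0.51 and Cebpa, which starts granulocyte commitment, by -0.46. Cebpe, which drives specific granule genes, was below background on both arrays, at 4.94 in the array labelled KO and 5.33 in the array labelled wild type. The NADPH oxidase and oxidative burst list had a median of 0.00 over 11 genes, with none 1.5-fold apart. Genes for neutrophil attractants and their receptors had a median of -0.06 over 9 genes. Of these, Cxcl3 and Cxcl2 were 2.27-fold and 2.24-fold lower in the array labelled KO, while Ppbp, a platelet chemokine, and Cxcl15, a lung epithelial one, were 2.01-fold and 1.89-fold higher. Receptors for the secreted proteins and their adaptors had a median of -0.08 over 11 genes. Of these, Cd33 was 1.55-fold higher in the array labelled KO, and Ly96, the partner of TLR4, differed by 0.55. In the other direction, Fpr2 differed by -0.52 and Myd88 by -0.37. Tlr4 differed by 0.07, Slc22a17, the receptor of lipocalin 2, by -0.13 and Ager, which encodes RAGE, by -0.08.

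**Figure D3:**
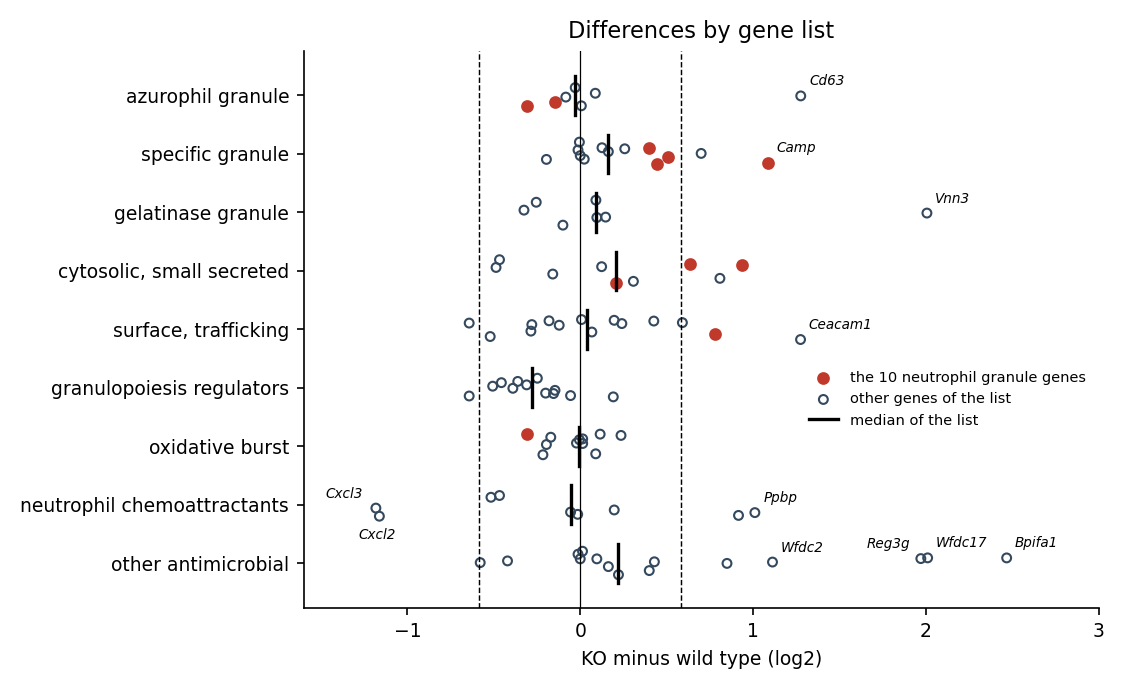
Difference, KO minus wild type (log2), of every analysed gene in 9 lists of neutrophil and antimicrobial genes, with the 10 genes in red, other genes as open circles, the list median as a black bar and 1.5-fold as dashed lines. Red points lie right of 0 except Elane and Mpo, and the regulator list is centred left of 0 at -0.28.

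Other antimicrobial genes included larger differences than any of the 10. Of 15 analysed, 5 passed 1.5-fold upward in the array labelled KO and none passed it downward, with a median of 0.22. Bpifa1, an airway epithelial secretory protein, was 5.53-fold higher, Wfdc17, a WAP domain protein of macrophages, 4.03-fold and the lectin gene Reg3g, of airway and gut epithelium, 3.92-fold. Bpifa1 and Reg3g also stand in the epithelium marker list. Wfdc2, also of airway epithelium, was 2.16-fold higher and Lyz1, the second lysozyme, 1.80-fold. Slpi, an antiprotease, differed by 0.01.

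Within gene families, single members stood apart. In the S100 family, with 10 of 16 genes analysed, S100a1 read 12.47 in the array labelled KO and 11.08 in the array labelled wild type, and it and S100a8 were the 2 genes 1.5-fold higher. S100a13 differed by 0.29, S100a6 by 0.10, S100a4 by 0.05 and S100a11 by -0.05. Retnla, a resistin-like gene of alternatively activated macrophages that neighbours Retnlg, read 11.48 in the array labelled KO and 10.94 in the array labelled wild type, and Retn differed by -0.12. In the Ly6 family, whose members are alike enough that probes can be shared, Ly6g was 1.72-fold higher while Ly6c2, of monocytes, was 1.61-fold lower, at 7.66 in the array labelled KO and 8.35 in the array labelled wild type. The peroxidase genes Lpo and Epx, close to Mpo on chromosome 11, were near background as well: Lpo differed by 0.10, and Epx read 5.33 in the array labelled KO and was below background in the array labelled wild type. The family medians were 0.15 for S100 genes (10 analysed), 0.54 for resistin genes (3), 0.09 for Ly6 genes (7), 0.10 for peroxidases (3), 0.16 for transferrins (2) and 0.17 for serine proteases of neutrophils and lymphocytes (4).

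Markers of other cells also differed between the arrays. Of the neutrophil markers, several of which other cells express as well, 15 of 16 lay above background on both arrays, as did 47.3% of all 22180 genes. Neutrophils of healthy lung generally lack Siglec-F, which the sort required, but whether neutrophils or their RNA came through the sort was not tested. Airway and alveolar epithelium markers had a median of 0.38, with 7 of 16 analysed genes at least 1.5-fold higher and 1, Epcam, 1.5-fold lower. Above background were 13 of 18 on each array, and their summed linear signal was 9021 in the array labelled KO and 6808 in the array labelled wild type. T and NK cell markers lay above background in 7 of 11 genes in the array labelled KO and 5 of 11 in the array labelled wild type. The genes above it only in the array labelled KO were Gzmb and Cd4. Cd4 read lower there, 5.31 against 5.37, and passed only because the background level of that array is the lower one. T and NK cell markers had a median of 0.42 over 8 analysed genes. Their summed signals were 1179 in the array labelled KO and 802 in the array labelled wild type. Red cell and platelet markers had a median of 0.51 over 4 genes, led by Ppbp. Eosinophil, mast cell and basophil markers had a median of 0.71 over 4 analysed genes, 2 of them 1.5-fold higher and 1 lower. They reached background in 5 of 15 measured genes in the array labelled KO and 2 of 15 in the array labelled wild type. Their summed signal was 2781 in the array labelled KO and 719 in the array labelled wild type. Most of it came from Ear6, which read 11.23 in the array labelled KO and 8.60 in the array labelled wild type. The only other gene of the list above background in the array labelled wild type was Hdc. It went the other way, at 5.48 in the array labelled KO and 6.13 in the array labelled wild type. The median of this list lies between Epx and Prg2, both below background in the array labelled wild type. Measured from that level, Prg2, counted above as 1.5-fold higher, was at least 1.31-fold higher in the array labelled KO. Monocyte markers had a median of -0.64, with 6 of 10 genes at least 1.5-fold lower, 3 of them 2-fold, and summed signals of 11469 in the array labelled KO and 11549 in the array labelled wild type. Most of that sum was Chil3, an abundant product of alveolar macrophages too, and the other 11 markers summed to 1592 in the array labelled KO and 2498 in the array labelled wild type. B and plasma cell markers had a median of 0.04 over 7 genes, and neutrophil progenitor markers one of -0.03 over 9. Alveolar macrophage markers had a median of 0.14, with 3 of 16 genes 1.5-fold higher and 4 lower. The part of other cells in the differences of the 10 genes was not tested.

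**Figure D4:**
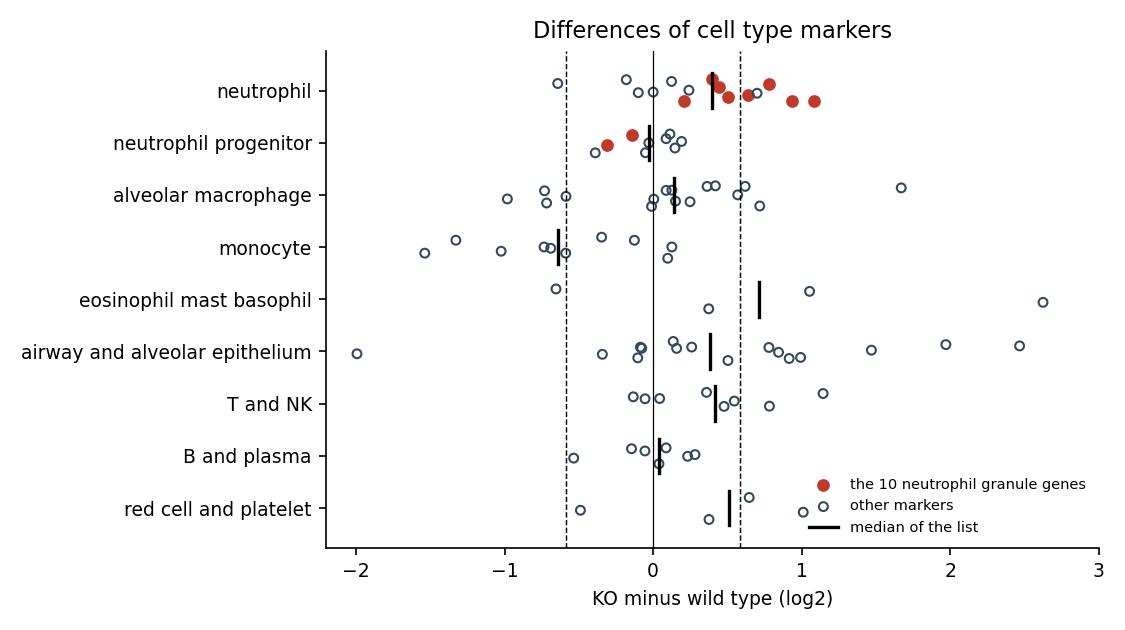
Difference, KO minus wild type (log2), of analysed marker genes of 9 cell types, with the 10 genes in red, other markers as open circles, list medians as black bars and 1.5-fold as dashed lines. Within the neutrophil row the red points lie to the right of most open circles, and the monocyte row is centred at -0.64.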

How the data were processed

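Per the submitters' processing notes, the authors used RMA, and they deposited log2 values for 41345 rows on 2 Affymetrix arrays. Neither RMA's version nor a genome build is named in those notes. That the base is 2 follows from RMA and from the range, 0.77 to 13.86. The platform annotation gives 23521 rows a single symbol, 1814 several, with no member among these, and 16010 none. Rows of a gene were averaged (Python 3.11.15, pandas 2.3.3). Symbols were matched through Entrez identifiers to a RefSeq table (GRCm38.p6) for chromosome order. Differences are KO minus wild type. With 1 array per genotype no test, p-value or standard error was computed, and the number of arrays limits the precision. Calls mean a fold of 1.5 or 2. Where a gene lies below background on 1 array, its fold is measured from the background level and written "at least". The members and the 25 gene lists were chosen with earlier results of these data known. Named genes are the 10 members, up to 4 analysed genes with the largest absolute difference of each list, any gene of a family list, chromosome neighbours, Pikfyve, Siglecf and Itgax; other list genes were named after their values were seen. The calls and the local spread were tested on simulated data. Alternatives were median centring, quantile normalisation, loess centring (span 0.3), an offset of 32, the row with the highest mean, other filters on low values, folds of 2 and 3, and 3 local spreads.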

Additional observations from a re-analysis of the deposited data

How the results depend on the processing

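No paired analysis was possible because each genotype has 1 array. All 50 recomputed differences of the 10 genes (5 alternatives each) moved by less than the local spread and kept their sign. Their median moved by less than the local spread under all 9 alternatives. Each of the 10 genes has 1 row, so taking the row with the highest mean could not change these values. Leaving out the filter, or a floor at the receptor background, kept all 10 genes and so left their median unchanged. The count of the 10 genes at least 1.5-fold higher, 4, was 3 with quantile normalisation, loess centring, the offset, 3 local spreads or a floor at the 75th percentile, which keeps 6 of the 10, 1 at 2-fold and 0 at 3-fold. Over all genes, 557 were 1.5-fold higher and 333 lower. These counts were 293 and 121 with the offset, 969 and 833 when unfiltered, 371 and 175 with a floor at the 75th percentile, 116 and 42 at 2-fold, 37 and 4 at 3-fold, and 197 and 93 at 3 local spreads. The share of these calls that were higher was 62.6%, and 73.8% with median centring, which moved the median of the analysed genes to 0.05.

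List medians were recomputed under alternatives added after seeing the data. With a floor at the 75th percentile the median was 0.64 for other antimicrobial genes, -0.47 for neutrophil attractants, 0.88 for epithelium, 0.78 for T and NK cells, 0.83 for red cells and platelets (2 genes), 1.14 for serine proteases (1 gene) and 2.62 for eosinophil, mast cell and basophil genes (1 gene). With a floor at the receptor background it was 0.78 for epithelium and 0.99 for eosinophil, mast cell and basophil genes. Unfiltered, it was 0.26 for eosinophil, mast cell and basophil genes (0.71 as reported), 0.21 for the resistin family (0.54), 0.05 for other antimicrobial genes (0.22), 0.24 for epithelium (0.38) and 0.26 for T and NK cells (0.42). With the offset it was 0.27 for T and NK cells. These filters keep other genes of each list. Of the recomputed differences of other named genes, 275 moved by less than the local spread and 5 by more, and none of at least 1.5-fold changed sign. Taking the row with the highest mean could not move genes that have 1 row. Signal over background limits Elane, Mpo and, in the array labelled wild type, Ly6g.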

Other observations

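The genes that lie next to the 10 on their chromosomes were read as well, 3 measured genes on either side. Of these 54 neighbours 33 were analysed, with a median difference of 0.00. Of the 33, 3 (9.09%) were 1.5-fold apart, where 7.11% of all analysed genes were: 3000002C10Rik and Nme6, a nucleoside diphosphate kinase family gene, both close to Camp, were higher in the array labelled KO, and Ly6c2, close to Ly6g, was lower. Nme6 read 7.90 in the array labelled KO and 7.28 in the array labelled wild type, a difference of 0.62, and 3000002C10Rik differed by 0.64. Cdc25a, on the other side of Camp, differed by -0.04.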
